A study of Homo sapiens with 10 samples.

Results

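Interferon-stimulated genes are the genes that cells switch on when type I interferon reaches them, and 43 of them were chosen by name from general knowledge of the pathway. Earlier results of these data were known when they were chosen, so the choice was not independent of the data. Of the 43 genes, 42 were measured among 22432 named genes, and STAT2 was not analysed here. They were read in 786-O cells, an established human clear-cell renal carcinoma line, on 10 Affymetrix arrays in 5 groups of 2. A table of 6 arrays held cells with a scrambled hairpin, with ZHX2 hairpin 44 and with ZHX2 hairpin 45. Another table of 4 arrays held cells with a control shRNA and with an shRNA targeting p65, which RELA encodes and which is part of NF-kB. Every group had been infected with lentivirus and kept under puromycin at 2 ug/ml, so the controls carried virus and drug as well. No interferon and no virus other than the vector is named in the labels. The labels do not say whether the 2 arrays of a group were grown as separate cultures. The p-values therefore cover array-to-array spread alone, which could be technical, and with so few arrays the precision is limited.

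Type I interferons bind a receptor whose JAK kinases phosphorylate STAT proteins, and the STAT proteins join IRF9 in a complex that binds the interferon-stimulated response element in the promoters of these genes. Cells also hold a low standing level of the same genes without added interferon, and RNA sensors and IRF7 feed further interferon production. NF-kB, to which p65 belongs, takes part in switching on the interferon beta gene itself, and ZHX2 is a zinc-finger and homeobox transcription factor.

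Each targeted gene read lower with its own hairpins. RELA was higher with both ZHX2 hairpins averaged, by 0.44 ± 0.069 (limma SE, limma adjusted p 0.0112). With the p65 shRNA, ZHX2 changed by -0.088 ± 0.17 and was not called (limma adjusted p 0.861). ZHX2 read 10.58 and 10.43 on the scrambled arrays and between 8.93 and 9.38 on the 4 hairpin arrays, a log2 change of -1.14 with hairpin 44 and -1.53 with hairpin 45. RELA read 7.64 and 7.67 with the control shRNA and 5.04 and 5.28 with the p65 shRNA, a change of -2.50 ± 0.18 (limma SE) with an adjusted p of 0.0733, or 0.00132 when limma modelled the variance as a trend of intensity. All signals are log2 values normalised separately in the 2 tables, with array medians of 6.15 to 6.22 and of 1.87 to 1.89, and no level was compared between tables or between probe sets. The cell label was checked by signal percentile among all 53617 probe sets. In the ZHX2 table the 7 renal carcinoma markers measured lay at percentiles of 72.8 to 99.3, with a median of 95.6. The 11 leukocyte markers lay at 11.4 (PTPRC, the pan-leukocyte antigen) to 69.3 (NKG7), with a median of 32.0. With both ZHX2 hairpins averaged, 3 of the 7 renal markers fell and 1 rose. The cadherin CDH6 fell by 1.92 ± 0.063 (limma adjusted p 0.000501) and PAX8, a kidney transcription factor, by 0.38 ± 0.061 (0.0117); NNMT also fell and KRT18 rose. Of the 11 leukocyte markers 0 were called by limma and 1, CD3E, had an unadjusted p under 0.05 (change -0.16 ± 0.064, unadjusted p 0.0459), with CD14 next (0.089 ± 0.071, 0.258). What part the change of these markers has in the results below was not tested.

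The 42 genes lay between the 44.0th percentile (HERC5) and the 95.7th (LGALS3BP) of the ZHX2 table, with a median of 76.2, and all 42 lay above the 40th percentile in both tables. That limit is not one of detection, since 5 of the 11 leukocyte markers lay above it too, and the files used here mark no background. Most of them were lower with knockdown of ZHX2. With both hairpins averaged, 26 of 42 genes fell (61.9%) and 0 rose at a Benjamini-Hochberg adjusted limma p under 0.05, against 6.41% of all genes lower and 11.9% higher. The median change was -0.49, a 1.40-fold lower signal, against a median of -0.0043 over all genes. The quartiles were -0.79 and -0.27 and the range ran from -2.43 for IFI44L to 0.13 for GBP1. On 34 genes all 4 hairpin arrays read below both scrambled arrays, and on 0 they all read above, while 8 genes overlapped. Over all genes these shares were 16.4% lower and 21.9% higher. An unadjusted p under 0.05 was reached by 35 genes, all of them lower, against 13.1% of all genes lower and 19.0% higher. These shares of all genes include dim ones. With probe sets under the 40th percentile left out, 1814 of 16430 genes fell and 3442 rose with both hairpins averaged. In that fit 0 of the 42 genes lost a call and 6 gained one. In extracts of whole cultures, fewer cells expressing a gene and less RNA per cell cannot be told apart.

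The falls were modest in size apart from a few genes. At least a 2-fold fall was seen for 3 genes, IFI44L, OAS1 and SAMD9L. In the fits with 1 array left out, the group of that array has no replicate, and fewer of all genes fell as well. Calls kept or lost in those fits therefore cannot show whether they rest on single arrays. Of the 26 calls, 17 held whichever array was left out. DDX60 lost its call without hairpin 45 replicate 2 (limma adjusted p 0.0506) and EPSTI1 without scrambled replicate 2 (0.0580). PLSCR1 lost it without scrambled replicate 1, hairpin 44 replicate 1 or either hairpin 45 array (0.0729 to 0.120), and IFIT1 without either scrambled array, hairpin 44 replicate 1 or hairpin 45 replicate 2 (0.0572 to 0.133). DTX3L and HERC6 kept it only without scrambled replicate 2, and IRF7 only without scrambled replicate 1. OAS3 and IFITM3, the called genes with the smallest falls, lost it without any 1 of the 6 arrays (up to 0.138 and 0.134). Among all genes, 2664 rose and 1438 fell as deposited, and 2111 rose and 1858 fell after a further quantile normalization, under which 28 of the 42 interferon-stimulated genes fell and 0 rose.

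**Figure D1:**
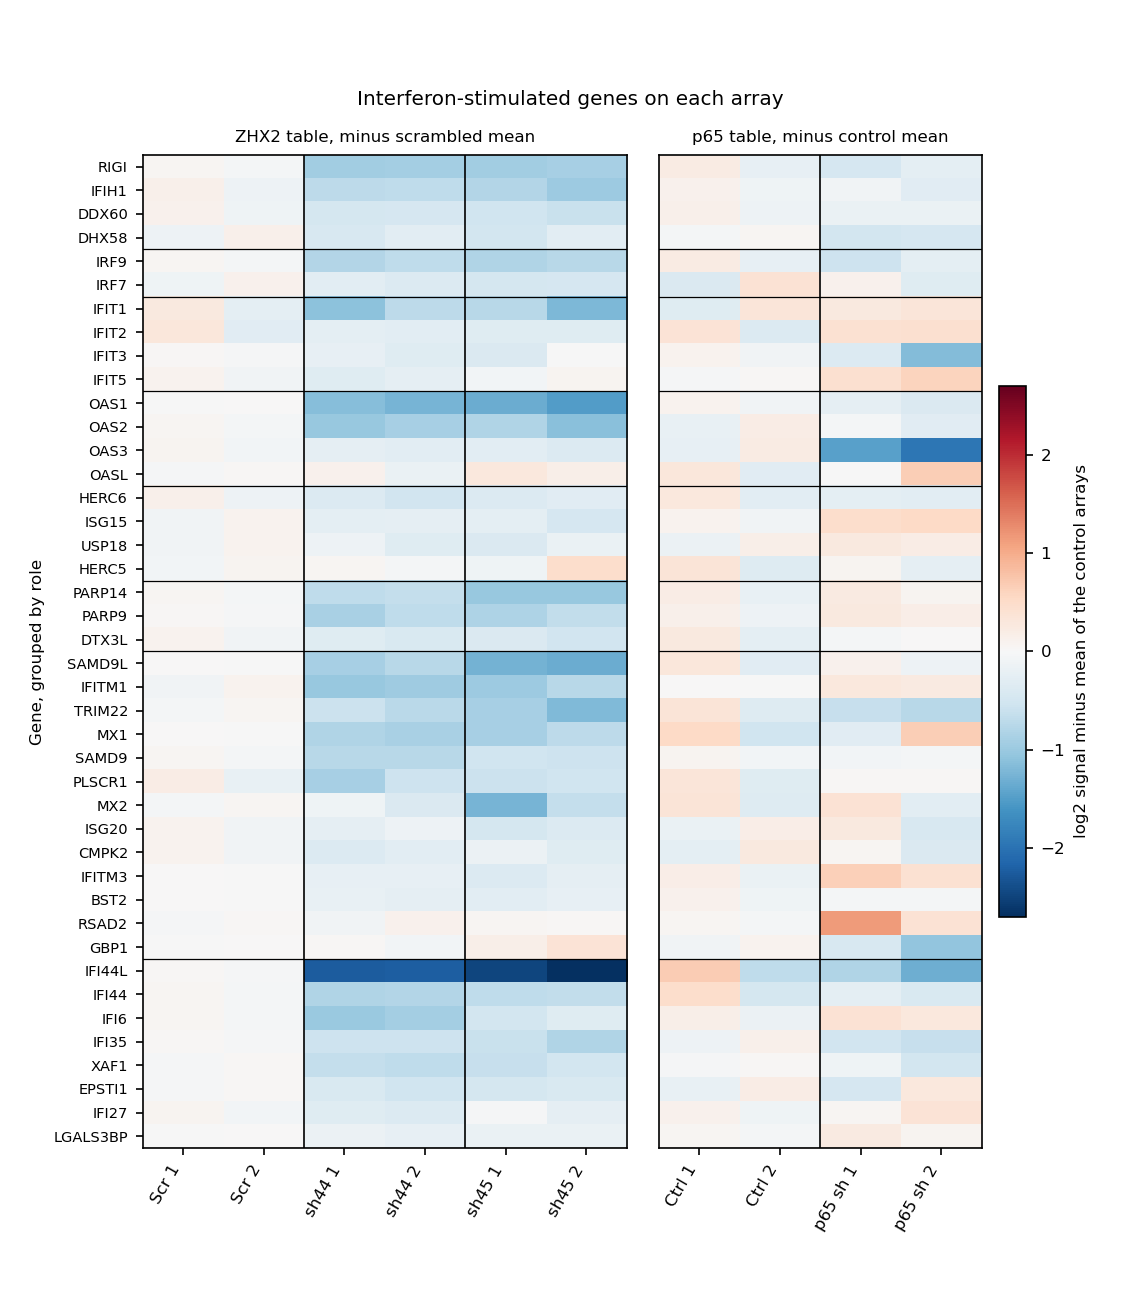
Each row is 1 of the 42 genes, grouped by role, and each column 1 array; colour gives the log2 signal minus the mean of the 2 control arrays of the same table. The 4 ZHX2 hairpin columns are blue for most genes, deepest for IFI44L, while the p65 columns hold both colours and the control shRNA columns differ from each other more than the scrambled ones do.

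The letters to which the interferon-activated complex binds can be read in the promoters of these genes. The RefSeq promoter table of GRCh38.p14 gives 250 bases before to 50 bases after the annotated start, and 35 of the 43 listed genes matched it. The core GAAANNGAA, searched on both strands with overlapping matches allowed, stood in 25 of 35 windows (71.4%), against 2264 of 27305 windows (8.29%) of all genes. Parts of 7 windows are shown, 5′ to 3′ along the gene, with matches in capitals. IFI44L (chr1:78620274-78620447 on the plus strand), IFIT1 (chr10:89392498-89392622 on the plus strand) and IFITM1 (chr11:313990-314039 on the plus strand) had falls near or past 1 log2 unit. IFITM3 (chr11:320861-320922 on the minus strand) is the neighbour of IFITM1 with a smaller fall, and ISG15 (chr1:1013374-1013496 on the plus strand) and RSAD2 (chr2:6865796-6865884 on the plus strand) hold the core and were not called. OAS3 (chr12:112938321-112938473 on the plus strand) had the largest difference with the p65 shRNA, and its second run of capitals is an NF-kB motif match.
IFI44L: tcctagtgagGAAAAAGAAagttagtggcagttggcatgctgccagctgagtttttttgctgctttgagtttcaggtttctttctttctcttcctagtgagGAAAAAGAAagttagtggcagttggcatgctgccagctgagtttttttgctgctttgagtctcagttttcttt
IFIT1: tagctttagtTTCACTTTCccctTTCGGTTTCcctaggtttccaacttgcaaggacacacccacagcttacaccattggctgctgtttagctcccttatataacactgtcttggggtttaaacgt
IFITM1: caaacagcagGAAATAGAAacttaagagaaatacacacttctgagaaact
IFITM3: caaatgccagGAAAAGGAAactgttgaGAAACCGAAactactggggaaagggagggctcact
ISG15: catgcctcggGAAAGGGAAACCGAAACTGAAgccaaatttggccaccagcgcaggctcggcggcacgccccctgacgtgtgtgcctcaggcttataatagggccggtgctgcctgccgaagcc
RSAD2: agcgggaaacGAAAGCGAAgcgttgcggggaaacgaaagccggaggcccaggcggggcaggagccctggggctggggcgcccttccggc
OAS3: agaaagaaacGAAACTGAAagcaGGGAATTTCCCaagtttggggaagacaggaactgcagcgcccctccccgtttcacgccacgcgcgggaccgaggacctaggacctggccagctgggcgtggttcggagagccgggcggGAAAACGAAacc
The matches of IFIT1 lie on the strand opposite to the gene and so read as the reverse complement, and those of ISG15 run into one another. Each stretch stops at the last base before the annotated start, which cuts off a second IFITM1 match that spans it. The IFITM3 stretch begins after an NF-kB motif match at bases -250 to -241, so that match is not shown. IFITM3 changed by 0.52 ± 0.21 with the p65 shRNA and was not called (limma adjusted p 0.350). A match is a run of letters and not a measured binding site.

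Of the RNA sensors, 3 of 4 fell, with a median change of -0.65. RIGI, the sensor of short viral RNA ends, read 9.41 and 9.32 with the scrambled hairpin; hairpin 44 gave 8.43 and 8.45, and hairpin 45 gave 8.43 and 8.47. IFIH1, the sensor of long double-stranded RNA, read 8.20 and 7.91, then 7.35 and 7.38, then 7.26 and 7.08 in the same order. Both genes were lower on all 4 hairpin arrays than on either scrambled array. RIGI fell by 0.92 ± 0.065 (SE; 1.89-fold, limma adjusted p 0.00184) and IFIH1 fell by 0.79 ± 0.10 (1.73-fold, 0.00692). DDX60, a helicase related to these sensors, fell by 0.52 ± 0.088 (0.0137). DHX58, the third RIG-I-like receptor, which tunes signalling by the other two, changed by -0.38 ± 0.11 and was not called (0.0679). With an intensity trend DHX58 passed (limma adjusted p 0.0185).

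Both measured transcription factors fell. IRF9, the DNA-binding partner of the STAT proteins, had scrambled values of 8.75 and 8.63, hairpin 44 values of 7.90 and 8.01, and hairpin 45 values of 7.87 and 7.95. IRF7, which drives interferon alpha genes, read 6.95 and 7.19, then 6.78 and 6.70, then 6.59 and 6.62. The hairpin arrays lay below the scrambled ones for both genes. IRF9 fell by 0.76 ± 0.075 (limma adjusted p 0.00342) and IRF7 fell by 0.40 ± 0.086 (0.0283). IRF9 is the only one of the 42 genes with a second probe set, and the dimmer one did not share the fall: its mean was 7.36 with the scrambled hairpin and 7.48 with the ZHX2 hairpins. The mean of the 2 probe sets changed by -0.32 (limma adjusted p 0.0237) with both hairpins averaged, and with hairpin 44 alone its change of -0.30 was not called (0.0708).

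The IFIT family, whose proteins bind viral RNA and hold back its translation, had 1 called gene of 4 and a median change of -0.27. IFIT1 stood at 7.91 and 7.40 in the scrambled group, at 6.55 and 6.96 under hairpin 44 and at 6.91 and 6.45 under hairpin 45. It fell by 0.94 ± 0.21 (1.92-fold, limma adjusted p 0.0301), the widest error among the 42 genes. The 2 arrays of each group stood well apart, yet no hairpin array reached a scrambled one. IFIT2 read 7.22 and 6.60 on the scrambled arrays against 6.58 to 6.65 on the hairpin arrays, so the groups overlapped (change -0.30 ± 0.17, 0.282). The value of IFIT2 rests on the scrambled arrays: without scrambled replicate 2 it fell by 0.61 and was called (0.0258), and without scrambled replicate 1 it changed by 0.0095 (0.944). IFIT3 (-0.24 ± 0.12) and IFIT5 (-0.14 ± 0.088) overlapped too and were not called. These 4 genes lie together on chromosome 10.

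In the OAS family, enzymes that make the adenylate chains that activate RNase L, 3 of 4 genes fell. OAS1 read 7.73 and 7.74 with the scrambled hairpin; hairpin 44 gave 6.59 and 6.49, and hairpin 45 gave 6.40 and 6.22. OAS2 read 7.53 and 7.43, then 6.46 and 6.59, then 6.67 and 6.35. For both genes every hairpin array stood below both scrambled arrays. OAS1 fell by 1.31 ± 0.080 (2.48-fold, limma adjusted p 0.00126) and OAS2 fell by 0.96 ± 0.11 (1.95-fold, 0.00459). OAS3 read 9.31 and 9.16, then 8.998 and 8.95, then 8.95 and 8.85, and fell by only 0.30 ± 0.075 (0.0454). OASL, a relative that lacks the enzyme activity, changed by 0.10 ± 0.10 and was not called. OAS1, OAS3 and OAS2 stand next to each other on chromosome 12.

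In the ISG15 pathway 1 gene of 4 was called. HERC6, a relative of the ligase HERC5, had scrambled values of 8.43 and 8.17, hairpin 44 values of 7.93 and 7.79, and hairpin 45 values of 7.95 and 8.001, and fell by 0.39 ± 0.095 (limma adjusted p 0.0411). ISG15, the ubiquitin-like modifier that HERC5 attaches to proteins, read 8.05 and 8.23, then 7.88 and 7.89, then 7.87 and 7.69. All 4 hairpin arrays of ISG15 lay below both scrambled arrays, but its change of -0.31 ± 0.087 was not called (0.0620). USP18, which removes ISG15 and damps the interferon receptor, changed by -0.26 ± 0.10 (0.144) and HERC5 by 0.085 ± 0.17 (0.777), neither called. With an intensity trend ISG15 and USP18 passed as well (0.0147 and 0.0295).

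All 3 genes of the PARP and DTX3L group fell. PARP14, an ADP-ribosyltransferase, stood at 10.60 and 10.48 in the scrambled group, at 9.84 and 9.89 under hairpin 44 and at 9.52 and 9.51 under hairpin 45. PARP9 read 7.84 and 7.77, then 6.93 and 7.12, then 6.96 and 7.14. PARP14 was lowest with hairpin 45, while PARP9 overlapped between the hairpins. PARP14 fell by 0.85 ± 0.068 (limma adjusted p 0.00219), PARP9 by 0.77 ± 0.090 (0.00516) and DTX3L, the ubiquitin ligase that binds PARP9, by 0.41 ± 0.084 (0.0241). PARP9 and DTX3L lie on opposite strands with annotated starts 446 bases apart, and read toward each other between those starts.

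Of 13 antiviral effectors, 7 fell and 0 rose, with a median change of -0.60. SAMD9L, which restricts poxviruses and damps translation, read 9.58 and 9.57 with the scrambled hairpin; hairpin 44 gave 8.68 and 8.82, and hairpin 45 gave 8.29 and 8.24. IFITM1, a membrane protein that hinders viral entry, read 7.66 and 7.87, then 6.75 and 6.81, then 6.78 and 7.02. SAMD9L was lower with hairpin 45 than with hairpin 44, and IFITM1 was not. SAMD9L fell by 1.06 ± 0.071 (2.09-fold, limma adjusted p 0.00165) and IFITM1 fell by 0.93 ± 0.10 (1.90-fold, 0.00425). The other called effectors were TRIM22 (-0.85), the GTPase MX1 (-0.82), SAMD9 (-0.65), the scramblase PLSCR1 (-0.64) and IFITM3 (-0.26). IFITM3, which acts on entry through endosomes, stood next to IFITM1 on chromosome 11 and fell far less. Their sequences are closely related, and cross-hybridisation was not tested.

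Several well-known effectors were not called. MX2, the relative of MX1 that restricts HIV, changed by -0.60 ± 0.18 (limma adjusted p 0.0693), and the exonuclease ISG20 by -0.30 ± 0.083 (0.0552). BST2, which tethers budding virus to the cell, changed by -0.24 ± 0.064 (0.0517) and the nucleotide kinase CMPK2 by -0.28 ± 0.090 (0.0854). The hairpin arrays of these 4 genes all lay below the scrambled ones. With an intensity trend BST2 and MX2 passed (limma adjusted p 0.00358 and 0.0145), and ISG20 and CMPK2 did not (0.0517 and 0.119). Under that setting 1994 of all 22432 genes fell and 3881 rose. RSAD2, the enzyme viperin, sits beside CMPK2 with its start 750 bases away on the other strand. RSAD2 changed by 0.023 ± 0.084 with a 95% interval from -0.18 to 0.23, and its arrays overlapped. Its probe set lay at percentile 59.2, below the leukocyte markers CSF1R (59.8) and NKG7 (69.3), so a fall may not have been measurable. MX1 (54.1) and EPSTI1 (50.1) lay lower still and were called. GBP1, a GTPase better known as a target of interferon gamma, changed by 0.13 ± 0.087.

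Among 8 other induced genes, 6 fell. IFI44L had scrambled values of 8.70 and 8.65, hairpin 44 values of 6.42 and 6.45, and hairpin 45 values of 6.19 and 5.88. It fell by 2.43 ± 0.099 (5.41-fold, limma adjusted p 0.00068), the largest change of the 42 genes. Its neighbour and relative IFI44 on chromosome 1 read 9.19 and 9.07, then 8.32 and 8.33, then 8.43 and 8.46, and fell by 0.74 ± 0.068 (0.00283). IFI6, a membrane protein of the endoplasmic reticulum and mitochondria, read 10.74 and 10.61, then 9.68 and 9.75, then 10.19 and 10.35. IFI6 was lower with both hairpins but less so with hairpin 45, and fell by 0.68 ± 0.080 (0.00513). IFI35 (-0.64), the apoptosis factor XAF1 (-0.61) and EPSTI1 (-0.46) also fell. IFI27 (-0.24 ± 0.088) and the secreted glycoprotein LGALS3BP (-0.18 ± 0.063) were not called. With an intensity trend LGALS3BP passed (limma adjusted p 0.00752) and IFI27 did not (0.139).

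**Figure D2:**
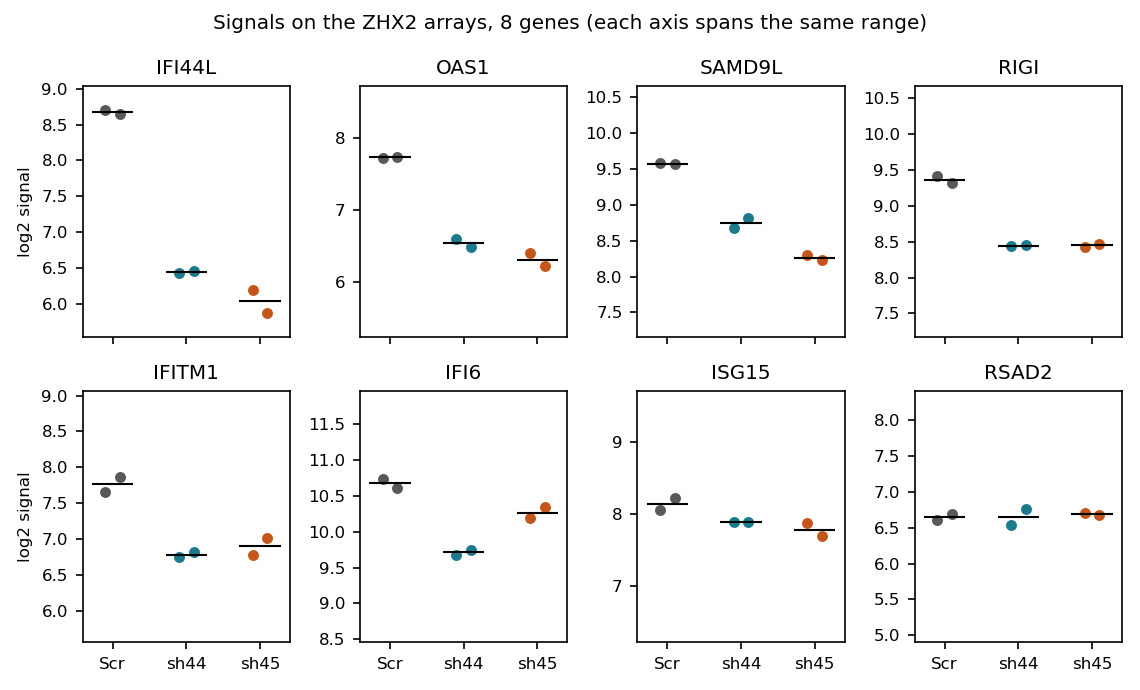
Log2 signal of 8 genes on each of the 6 arrays of the ZHX2 table, 1 point per array, with lines at the group means; the groups are scrambled (Scr), hairpin 44 (sh44) and hairpin 45 (sh45). IFI44L, OAS1, SAMD9L, RIGI and IFITM1 sit lower on every ZHX2 hairpin array, and RSAD2 stays at 6.54 to 6.76 on all 6.

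The fall was not limited to bright probe sets, though fewer dim ones were called. Ranked by scrambled signal, the 14 dimmest genes had 5 calls and a median change of -0.34, the 14 in the middle 10 calls and -0.64, and the 14 brightest 11 calls and -0.63.

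Each hairpin was also set against the same scrambled arrays, so the resulting pair of comparisons is not independent. With hairpin 44, 18 genes fell and 0 rose, against 2.84% of all genes lower and 4.81% higher, and the median change was -0.45. With hairpin 45, 26 fell and 0 rose, against 7.11% and 13.0%, and the median was -0.46. DDX60, DTX3L, IFIT1, IFITM3, IRF7, ISG20, MX2 and OAS3 passed with hairpin 45 and missed the threshold with hairpin 44. The counts with hairpin 44 and with hairpin 45 were lower when any array was left out, and so were the falls among all genes. Leaving out an array leaves its group without a replicate. These fits therefore cannot show whether the calls of these genes rest on single arrays.

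**Figure D3:**
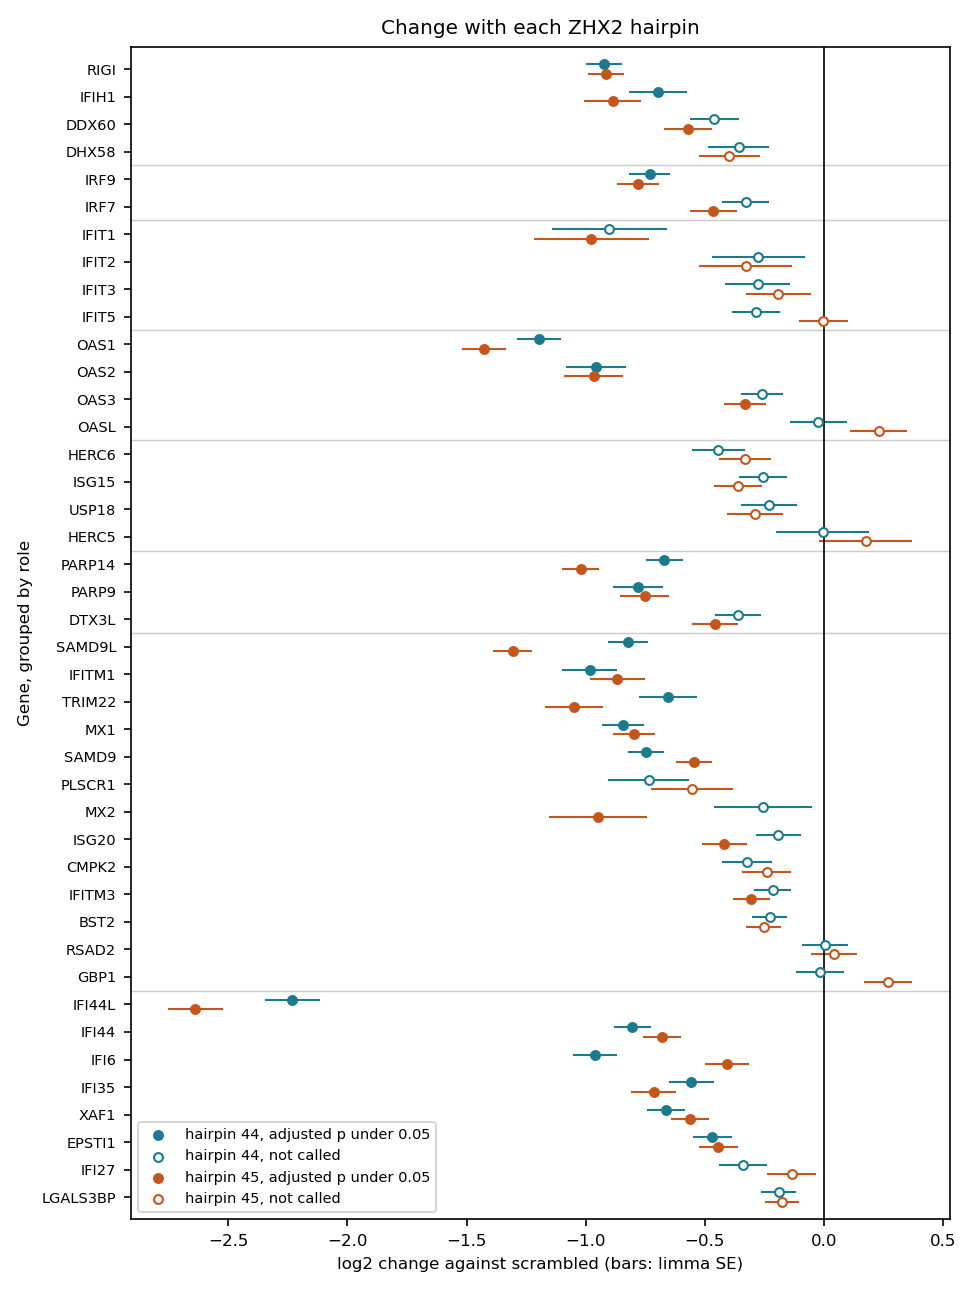
Log2 change of each gene against scrambled with hairpin 44 and hairpin 45, with limma SE bars; filled points passed an adjusted p of 0.05. Most pairs of points lie together left of 0, from -2.23 (hairpin 44) and -2.64 (hairpin 45) for IFI44L, and MX2, IFI6 and SAMD9L show the widest gaps.

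The direct comparison of the hairpins called 0 of the 42 genes either way with limma, against 0.267% of all genes lower and 0.129% higher with hairpin 45. At an unadjusted p under 0.05 there were 10, of which 6 were lower and 4 higher, against 6.74% and 8.35% of all genes. IFI6 had the smallest p: it was 0.55 ± 0.093 higher with hairpin 45 (95% interval 0.32 to 0.78, limma adjusted p 0.102). SAMD9L differed by -0.48 ± 0.082 (0.105), and PARP14 differed by -0.35 ± 0.078 (0.154). The hairpin 45 arrays lay outside the hairpin 44 arrays for these 3 genes, in opposite directions. With an intensity trend 4 genes passed as lower with hairpin 45, SAMD9L (0.00231), PARP14 (0.00404), TRIM22 (0.0439) and MX2 (0.0477), and IFI6 passed as higher (0.000665). The background under that setting was 2.43% lower and 4.11% higher. Over the 42 genes the median difference was -0.018. ZHX2 itself differed by -0.39 ± 0.086 and was not called as fitted (limma adjusted p 0.152), and it passed with the trend (0.00515).

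With the p65 shRNA limma called 0 of the 42 genes, as were 0% of all genes lower and 0% higher. At an unadjusted p under 0.05 there were 9 of the 42, 6 lower and 3 higher, against 7.95% and 6.39% of all genes. The median change was -0.077 and the range ran from -1.70 (OAS3) to 0.78 (RSAD2). The p65 arrays both lay below the control arrays for 12 genes and above them for 10, with 20 overlapping, against 22.7% and 23.4% of all genes. With an intensity trend 1 gene passed as lower and 0 as higher, against 2.49% and 1.37%.

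The gene that passed was OAS3. It read 6.01 and 6.45 with the control shRNA and 4.77 and 4.29 with the p65 shRNA, a difference of -1.70 ± 0.26 (3.25-fold lower, 95% interval -2.35 to -1.05). Its limma adjusted p was 0.100 as fitted and 0.00936 with the trend. The call with the trend held without either control array (0.00559 and 0.0195) and was lost without p65 replicate 1 (0.0612) or p65 replicate 2 (0.0807). The other OAS genes differed less, by -0.31 ± 0.18 for OAS1, -0.17 ± 0.21 for OAS2 and 0.32 ± 0.33 for OASL. In the OAS cluster the gene with the smallest called fall in the ZHX2 table had the largest difference in the p65 table.

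The genes next in order of p were IFI35 and IFIT5. IFI35 read 5.70 and 5.96 with the control shRNA and 5.31 and 5.20 with the p65 shRNA (-0.58 ± 0.18, limma adjusted p 0.267). IFIT5 read 5.24 and 5.29, then 5.70 and 5.86 (0.52 ± 0.17, 0.279). These pairs did not overlap, one lower and the other higher, and neither was called. IFI44L read 4.19 and 2.84 with the control shRNA and 2.71 and 2.21 with the p65 shRNA (-1.06 ± 0.47, 0.394). ISG15 read 5.63 and 5.42, then 6.01 and 6.06 (0.50 ± 0.18, 0.301). RSAD2, chosen here for its value at the upper end of the range, read 1.85 and 1.76, then 2.96 and 2.19 (0.78 ± 0.29, 0.322). Both control values of RSAD2 lay under the array medians of 1.87 to 1.89, so they may lie near an unmarked background. The 4 other genes with an unadjusted p under 0.05 were all lower, GBP1 (-0.75 ± 0.26), DHX58 (-0.47 ± 0.17), IFIT3 (-0.78 ± 0.30) and TRIM22 (-0.68 ± 0.27), and none was called (limma adjusted p 0.292 to 0.339).

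The control shRNA arrays stood further apart from each other in these genes than the scrambled ones. The median absolute difference between them was 0.37 over the 42 genes and 0.23 over all genes, and replicate 1 was the higher in 29 of 42 (69.0%), against 48.6% of all genes. Replicate 1 was also the higher in 29 of 42 (69.0%) between the p65 shRNA arrays, against 51.8% of all genes, and in 27 of 42 (64.3%) between the scrambled arrays, against 56.7%. IFI44L stood 1.36 apart, and MX1 read 3.91 and 2.82. The scrambled arrays had a median absolute difference of 0.12 over the 42 genes and 0.13 over all genes. For IFI44L the p65 difference was -1.73 without control replicate 2 and -0.38 without control replicate 1, and neither was called.

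**Figure D4:**
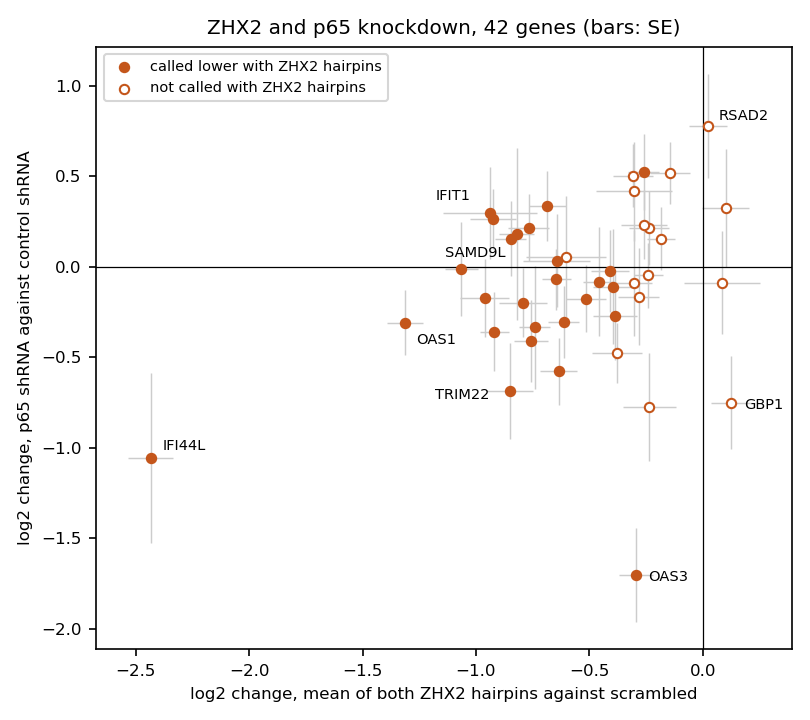
Log2 change of the 42 genes with the p65 shRNA against their change with both ZHX2 hairpins, with SE bars; filled points were called lower with the ZHX2 hairpins. Points spread above and below 0 on the p65 axis, with OAS3 and IFI44L lowest there and RSAD2 highest.

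The ZHX2 and p65 comparisons share no array. Of the 42 genes, 23 were lower in both, 15 were lower with the ZHX2 hairpins and higher with the p65 shRNA, and 2 each took the other combinations. Over all genes these shares were 24.3% lower in both, 26.3% lower with the ZHX2 hairpins and higher with the p65 shRNA, 24.9% the reverse and 24.4% higher in both. Of the 42 they were 54.8%, 35.7%, 4.76% and 4.76%, and 38 of the 42 were lower with the ZHX2 hairpins to begin with. Across the 42 genes Pearson's r was 0.29 and Spearman's rho 0.22, beside -0.065 and -0.049 across all genes; genes of 1 array are not independent replicates, and this is a description.

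The rest of the pathway was read through lists written from general knowledge, with earlier results of these data known. Their counts stand against the 6.41% of all genes lower and 11.9% higher. Of the 8 interferon ligands measured, 7 lay under the 40th percentile, where a fall may not be measurable. With both ZHX2 hairpins averaged 0 of 8 were called by limma, 0 had an unadjusted p under 0.05, 0 passed with an intensity trend, and the median was 0.0087; IFNG changed by 0.16 ± 0.089 (limma adjusted p 0.269) and IFNA1 by -0.29 ± 0.16 (0.278). Of 6 receptor chains 1 fell, IL10RB, a chain of the lambda interferon receptor, by 0.26 ± 0.066 (0.0443), and IFNAR2 changed by -0.18 ± 0.067 (0.135). Of 8 JAK, STAT and IRF genes 1 fell, the kinase JAK1, by 0.40 ± 0.065 (0.0121). TYK2 changed by -0.16 ± 0.064 (0.141) and IRF1, an early interferon target, by 0.026 ± 0.074 (0.847). Of 8 negative regulators 1 rose, the phosphatase PTPN11 by 0.62 ± 0.068 (0.00425), and 1 fell, the phosphatase PTPN6 by 0.49 ± 0.082 (0.0127).

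Of 10 genes for nucleic acid sensing and its adaptors, 4 fell and 1 rose. The kinase IKBKE fell by 0.54 ± 0.063 (limma adjusted p 0.00502), with TLR3, IFI16 and STING1 also lower, and the DNA sensor CGAS rose by 0.73 ± 0.11 (0.0103). Of 33 further interferon-responsive genes 14 fell and 2 rose, with a median of -0.22. The chemokine CXCL10 read 6.97 and 6.49 with the scrambled hairpin and 4.12 to 4.47 on the 4 hairpin arrays, so it fell by 2.43 ± 0.18 (0.00191) as measured. Its probe set is dim, at percentile 29.1, and a fall to an unmarked background would make this size a lower bound. UBA7, the activating enzyme for ISG15, fell by 0.79 ± 0.068 (0.00251). The others that fell were GBP2, TMEM140, TNFSF10, TRIM38, SLFN5, SHFL, PARP10, TRIM5, RNF213, HELZ2, SP110 and SP100, and NT5C3A and PNPT1 rose. GBP2 was dim too, at percentile 33.5, and its probe set was not the same one in the ZHX2 and p65 tables.

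With the p65 shRNA 0 of the 73 genes of these pathway lists were called by limma as fitted. At an unadjusted p under 0.05, 11 were lower and 4 higher, against 7.95% and 6.39% of all genes. IL10RB differed by -2.29 ± 0.19 (adjusted p 0.0733), CGAS by -1.32 ± 0.19 (0.0948) and IKBKE by -0.98 ± 0.17 (0.113). CXCL10 differed by 0.24 ± 0.21 (0.661) and IRF1 by -0.012 ± 0.20 (0.985). With an intensity trend, the setting under which OAS3 passed, 6 genes of the pathway lists passed as lower, IL10RB (adjusted p 0.00238), TNFSF10 (0.00778), CGAS (0.0243), PARP12 (0.0287), RNF213 (0.0311) and IKBKE (0.0316), and 1 as higher, TMEM140 (0.0185). The renal marker EPAS1 also passed as lower (0.0445). With that trend 2.49% of all genes passed as lower and 1.37% as higher.

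Genes fell with and without the core motif in their promoter window. Of the 25 measured genes with a match, 15 fell with both hairpins averaged and the median change was -0.41. Of 9 genes with a promoter entry and no match, 8 fell (RIGI, IRF9, OAS1, HERC6, PARP9, SAMD9L, IFI35 and XAF1, with CMPK2 not called), and their median was -0.76. The 8 measured genes with no promoter entry had 3 falls. Windows with a further A after the core numbered 24 of 35 (68.6%), against 3.65% of all windows, and 23 of 35 (65.7%) held the core before the start, against 7.06%. The absence of these letters says nothing about sites elsewhere. The NF-kB consensus motif stood in 7 of 35 windows (20%), against 10.8% of all windows, and these were IFIH1, RIGI, OAS3, MX1, BST2, IFITM3 and XAF1. With the p65 shRNA these 7 genes ranged from -1.70 (OAS3) to 0.52 (IFITM3), with a median of -0.20.

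**Figure D5:**
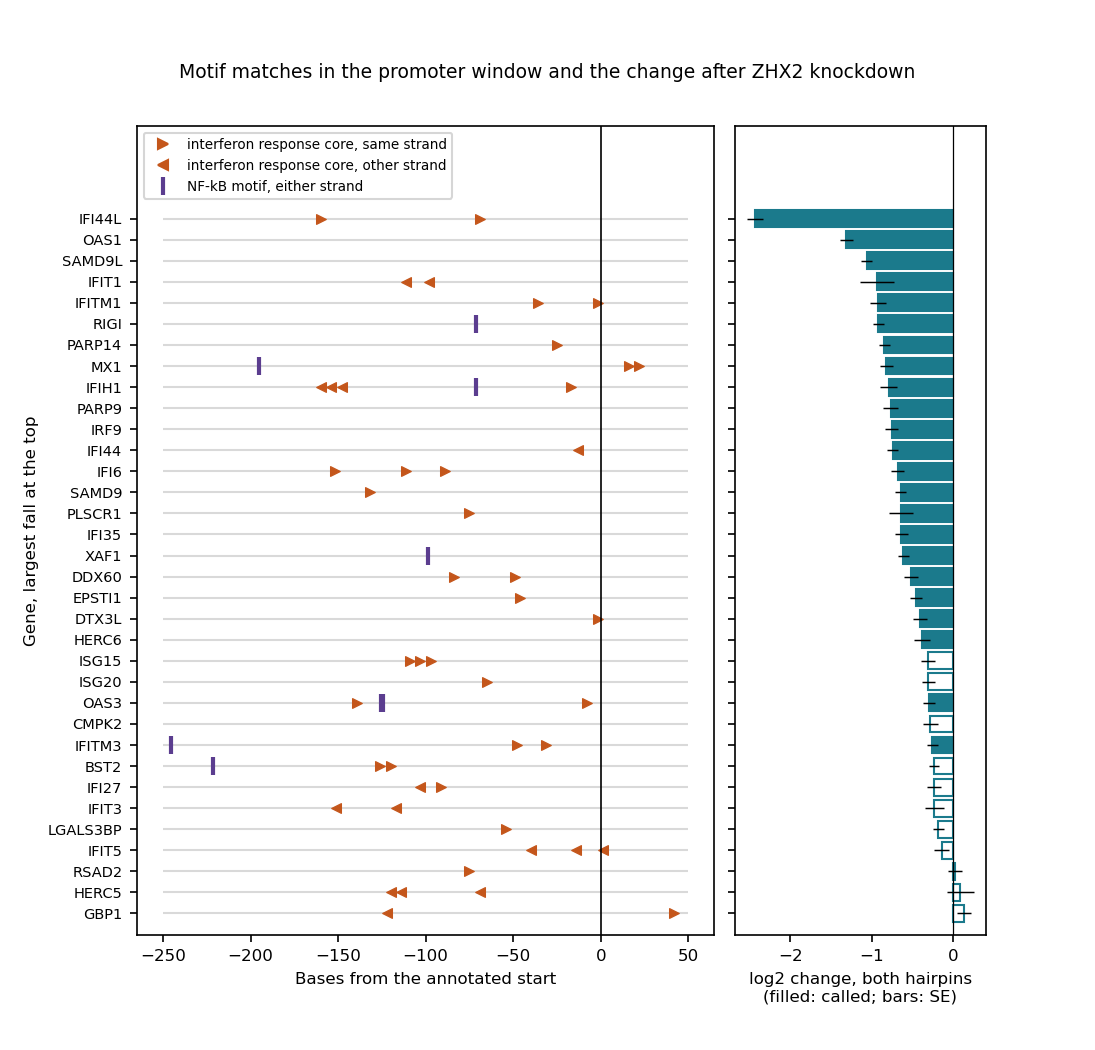
Left, positions of motif matches relative to the annotated start, in bases, for the 34 measured genes with a promoter entry, ordered by fall; right, log2 change with both ZHX2 hairpins, with SE bars and filled bars for called genes. Genes with and without a match stand among the largest falls, and most matches lie before the start.

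The genes next to these were read as well. Of the 42 genes, 21 stood in 10 runs of adjacent interferon-stimulated genes, such as the OAS, IFIT and IFITM clusters. The 60 protein-coding genes that flank the 42 genes or their runs had 8 falls (13.3%) and 1 rise (1.67%, GBP3), against 6.41% and 11.9% of all genes, with a median change of -0.043. The flanking genes that fell were AGRN, GBP2, TRIM5, P2RX7, REC8, VAT1, DDX60L and ACO1, of which GBP2 and TRIM5 are in the list of further interferon-responsive genes.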

How the data were processed

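Total RNA of 786-O cells was hybridised to Affymetrix arrays, per the labels' protocols. The authors deposited log2 signals made with RMA, per the submitters' processing notes, which correct the background, normalise the arrays and summarise each probe set. The RMA version was not given in the sources used here, nor was the authors' probe annotation. Groups and replicate numbers come from the sample titles. Gene names were taken from the 2 tables' platform annotations together, updating symbols through RefSeq GRCh38.p14. Of 53617 probe sets, 24480 had 1 gene, 27196 none, 1842 several and 99 different genes in the 2 annotations. The brightest probe set stood for each of the 1103 genes with more than 1. Depth does not apply to arrays.

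Group means were fitted with limma 3.58.1 in R 4.3.3, the 6 ZHX2 arrays in 1 fit (3 residual degrees of freedom) and the 4 p65 arrays in another (2), with empirical Bayes moderation and Benjamini-Hochberg adjustment over 22432 genes. Errors are moderated SE. The script was tested on simulated data. Alternatives were an intensity trend, quantile normalization, median centring, leaving out probe sets under the 40th percentile, the mean of probe sets, the replicate number as a block, only the 2 groups compared, and leaving out each array. The intensity trend combined with each p65-table array left out was added after seeing the data.

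The 43 genes, the lists and the rule for named genes were chosen with earlier results of these data known. Per-array values are given for the 2 genes of each role with the largest change for both hairpins averaged and for the 3 with the smallest p between hairpins and with p65. Outside the 43, values are given for IRF1 and the 2 genes with the smallest p in each list, and other called genes are named, those called with p65 under the trend with their p. Other values with p65 were chosen after they were seen. Of the lists' genes, 6 were not analysed here.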

Additional observations from a re-analysis of the deposited data

How the results depend on the processing

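The direction of every called gene held under every alternative run. With both hairpins averaged the count of falls was 19 to 22 when 1 array was left out, and 23 (replicate block, median centring) to 32 (intensity trend) otherwise; the number of rises was 0 in each. With hairpin 44 it was 0 to 16 when 1 array was left out, with medians of -0.58 to -0.42, and with hairpin 45 it was 13 to 20, with medians of -0.55 to -0.46. Leaving out an array leaves its group with 1, which limma assumes to vary like the other groups. Quantile normalization moved the hairpin 45 median to -0.57, and the cause was not tested. Between the hairpins, an intensity trend called 4 genes lower and 1 higher with hairpin 45, and leaving out dim probe sets called 1 lower and 1 higher. With the p65 shRNA, the intensity trend called 1 gene lower, and 1 without control replicate 1 and 1 without control replicate 2 (settings chosen after seeing the data); the median was -0.22 to 0.046 when 1 array was left out.

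Over all 22432 genes, the deviations of same-numbered arrays had correlations of -0.026 to 0.054. With so few arrays per group, these values cannot show whether same-numbered arrays were grown or processed together. The labels do not say either. With the replicate block the falls were 23 with both hairpins averaged, 16 with hairpin 44, 22 with hairpin 45, and 0 between hairpins and with p65. Of all 22432 genes, 1217 fell under that block with both hairpins averaged, 353 with hairpin 44 and 1355 with hairpin 45. As fitted, these all-gene falls were 1438, 638 and 1595. Of single genes with both hairpins averaged, OAS3, HERC6, IFITM3 and PLSCR1 lost their call under that block and OAS3, HERC6 and IFITM3 under median centring.

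Counts over all genes moved more. With hairpin 44, 1078 rose and 638 fell as fitted, 2634 and 1306 with the intensity trend, 1985 and 1077 without dim probe sets, and 953 and 908 after quantile normalization. With hairpin 45, 2918 rose and 1595 fell as fitted and 2210 and 1956 after quantile normalization. Between the hairpins, 29 and 60 became 921 and 545 with the trend and 198 and 205 without dim probe sets, and with p65 0 and 0 became 307 and 559 with the trend. With 1 array left out the rises were 1001 to 2303 and the falls 779 to 1037 with both hairpins averaged, 1 to 403 and 2 to 272 with hairpin 44, 669 to 2714 and 465 to 1260 with hairpin 45, and 0 and 0 to 4 between hairpins.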
